A study of Mus musculus with 2 samples.

Results

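The 10 genes described here handle haem and iron: Hmox1, Blvra, Blvrb, Slc48a1, Fth1, Ftl1, Slc40a1, Tfrc, Aco1 and Ireb2. They were matched by gene symbol to the features of both count matrices, and all 10 were found among 32285 genes. The members were chosen by pathway but also selected on their measured UMI levels in these 2 libraries, which were already known, so their differences between the libraries are given as a description. The study compared tumours of CMT167R, a mouse lung carcinoma line described by the labels as resistant to anti-PD1, with the genotype given as WT. These cells had been injected under the skin of C57BL/6 hosts, which keep their own immune system. One group received control solvent. The other received PKCi, a protein kinase C inhibitor by its label, at 3 mg/kg daily by intraperitoneal injection, and tumours were taken when controls had reached 400 mm3. Each group is 1 library of dissociated whole tumour, and the labels used here do not say how many mice each library holds or their age and sex. With 1 library per group there is no replicate check and no test: the intervals below are exact 95% intervals that cover counting error only, and a difference between the libraries may be a difference between tumours.

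Haem oxygenase 1, the product of Hmox1, opens the haem ring and frees iron, carbon monoxide and biliverdin. Blvra and Blvrb encode the biliverdin reductases, and Slc48a1 (HRG1) carries haem out of the phagolysosome. Iron is stored in ferritin, a shell of heavy (Fth1) and light (Ftl1) chains, leaves cells through ferroportin (Slc40a1) and enters on transferrin through its receptor (Tfrc). The iron regulatory proteins encoded by Aco1 and Ireb2 bind hairpins called iron-responsive elements when iron is scarce, which blocks translation where the hairpin lies in the 5' UTR and stabilises the transcript where it lies in the 3' UTR. Macrophages that clear red cells are known for recycling iron through this set of genes.

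The hairpins are shown because 4 of the 10 genes carry a match to their pattern. Matches lie in the 5' UTR of Fth1, Ftl1 and Slc40a1 and in the 3' UTR of Tfrc. Binding to these hairpins was not measured. A script searched the sense strand of GENCODE M21 transcripts (GRCm38) for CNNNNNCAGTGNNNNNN, where the 5 bases on each side of the loop had to pair, G with T allowed. The 6 bases of the loop are in capitals.
Fth1 5' UTR, chr19:9982731-9982760, plus strand: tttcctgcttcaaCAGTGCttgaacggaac
Ftl1 5' UTR, chr7:45459779-45459808, minus strand: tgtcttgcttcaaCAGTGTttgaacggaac
Slc40a1 5' UTR, chr1:45925465-45925494, minus strand: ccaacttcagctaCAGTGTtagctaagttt
Tfrc 3' UTR, chr16:32631218-32631247, plus strand: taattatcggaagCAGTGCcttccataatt
Tfrc 3' UTR, chr16:32631597-32631626, plus strand: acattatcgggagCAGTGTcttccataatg
Tfrc 3' UTR, chr16:32631662-32631691, plus strand: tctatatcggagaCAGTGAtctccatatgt
Tfrc 3' UTR, chr16:32631709-32631738, plus strand: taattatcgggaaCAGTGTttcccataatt
In the longest coding transcript of each gene, the same search matched 20 of 20701 5' UTRs (0.0966%) and 118 of 20962 3' UTRs (0.563%). A match is a description of letters and not a measured site. A second search, for the antioxidant-response motif TGACNNNGC on either strand, matched 1 of 10 RefSeq promoter windows (GRCm38.p6) that were present for 7 of the 10 genes, that of Blvra, against 12.4% of all 32851 windows. No window was present for Hmox1, Slc40a1 or Slc48a1, so their promoters were not searched. These windows run from 250 bases before to 50 after a gene's start, and enhancers farther away were not searched.

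After filtering, 6269 control and 7078 PKCi cells remained, with medians of 32992 and 29550.5 UMIs (unique molecules counted) per cell, and 20 barcodes occurred in both libraries. Cell classes were rebuilt from marker genes. Levels are given in CPM, the UMIs of a gene per 1000000 UMIs of its class or cluster in a library. Clusters with Krt8 at 250 CPM or more over both libraries that scored low for every other class and were not shallow are the main population (4858 cells in control, 5324 in PKCi). The macrophage-like class held 293 and 607 cells, the monocyte-like class 473 and 452 and the neutrophil-like class 267 and 145. T-like (65 and 118), NK-like (36 and 51) and fibroblast-like cells (24 and 26) were described with wide intervals. Dendritic-like (9 and 25) and endothelial-like cells (19 and 31) were under 20 in control, and their few values rest on small counts. Another 225 control and 299 PKCi cells stayed unnamed, with medians of 5663 and 3851 UMIs, and held Krt8 at 261 and 307 CPM. Under the alternatives that rebuilt the classes, the control library had 134 to 389 macrophage-like and 222 to 595 monocyte-like cells, so which cells carry each class depends on the clustering. Within the myeloid classes the libraries differed in make-up: of 7 macrophage-like sub-clusters, number 1 held 130 control and 40 PKCi cells, number 3 held 56 and 206, and number 4 held 3 and 111. Of 5 monocyte-like sub-clusters, number 3 held 204 control and 31 PKCi cells, and number 5 held 72 and 203. Of the neutrophil-like clusters, number 27 held 92 and 2 cells. Marker levels moved as well: in macrophage-like cells the summed monocyte markers went from 1562 to 3355 CPM and the macrophage markers from 21798 to 14880, and in neutrophil-like cells the neutrophil markers went from 151066 to 70824. All 10 markers of each of these lists were detected in both libraries, and their part in the results was not tested. A cluster is said below to be led by genes among those highest in it against the rest of its class. A gene counts as higher or lower where its ratio passed 1.5 among genes with at least 20 UMIs over both libraries.

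Hmox1, Fth1 and the haem carrier were lower in the PKCi library in most myeloid and main-population comparisons. Ftl1 was lower in macrophage-like and monocyte-like cells, whereas Tfrc was higher in both of these classes and in the main population. In macrophage-like cells 6 of 10 genes were lower and 2 were higher, where 6.13% of all 11950 genes were lower and 11.5% higher. Of the 9 genes with enough UMIs in monocyte-like cells, 4 were lower (8.2% of all genes) and 2 higher (15.9%). In the main population 4 of 10 were lower (7.26% of all genes) and 1 higher (5.29%). In neutrophil-like cells 2 of 7 were lower (21.3% of all genes) and none was higher (25.5%). The genes counted as lower include Slc40a1 in the main population and Blvrb in neutrophil-like cells, whose ratio intervals included 1. The median log2 ratio of the members was -0.29 in the main population, -0.72 in macrophage-like, -0.08 in monocyte-like and -0.17 in neutrophil-like cells, against -0.03, 0.05, 0.16 and 0.05 over all genes. Rebuilt classes moved these counts: with the control library's mix of clusters 3 members were lower in macrophage-like cells, and with Leiden resolution 0.5 the count was 2 in monocyte-like and 5 in neutrophil-like cells. Since the genes were chosen with these ratios in view, nothing is read from these counts.

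**Figure D1:**
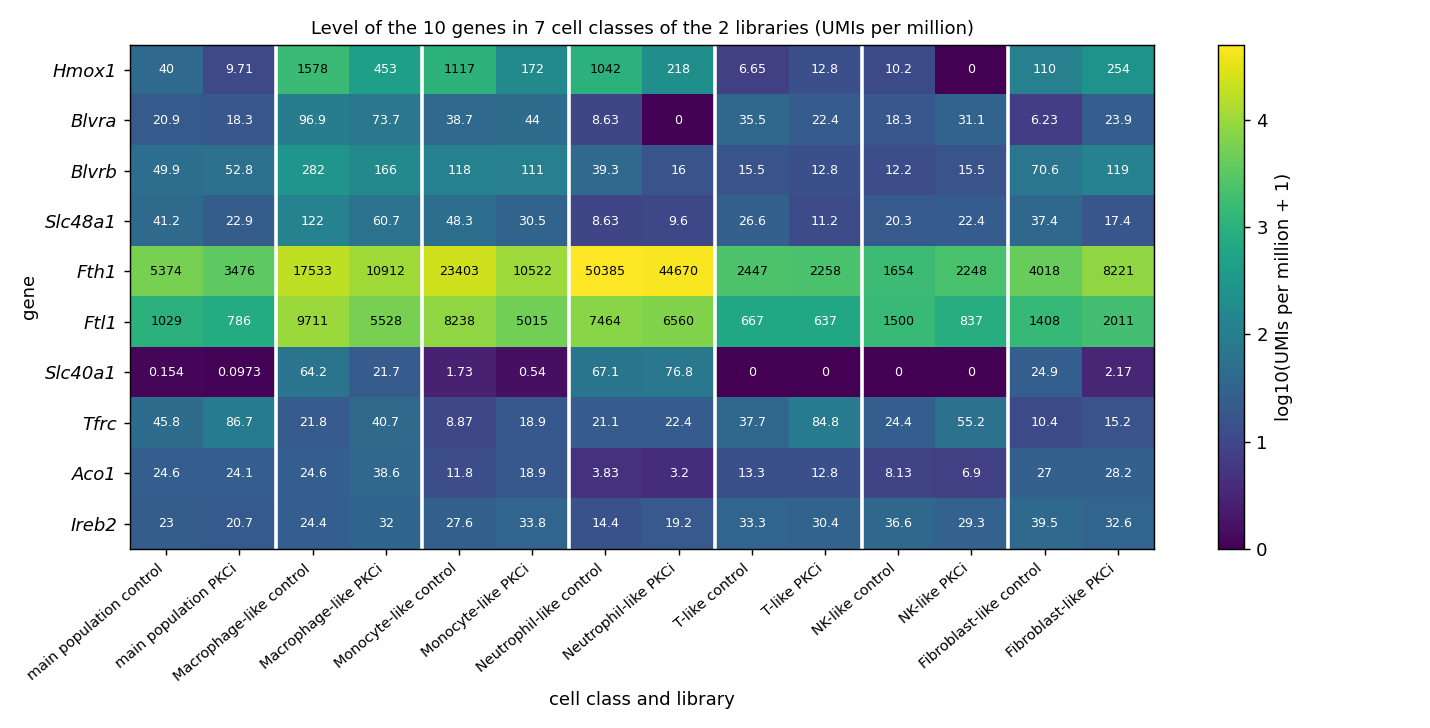
Level of each gene (rows) in 7 cell classes of the control and PKCi libraries (columns), in CPM, coloured by log10(level + 1). Hmox1 stands at 1578 in control and 453 in PKCi macrophage-like cells, and Slc40a1 is at 0 in both lymphoid classes.

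Among control cells, Hmox1 (chr8:75093621-75100589) was highest in the macrophage-like, monocyte-like and neutrophil-like classes. In the control library its level was 1578 CPM in macrophage-like cells (1545 to 1612), 1117 in monocyte-like cells (1085 to 1150) and 1042 in neutrophil-like cells (981 to 1106); the last pair of intervals overlapped. Fibroblast-like cells followed at 110 CPM (82.4 to 144), then endothelial-like cells at 75.3 (50.8 to 107) from 30 UMIs, the main population at 39.99 (39.1 to 40.9), NK-like cells at 10.2 (3.30 to 23.7) and T-like cells at 6.65 (1.37 to 19.4). The intervals of neighbouring classes overlapped for fibroblast-like and endothelial-like cells and for both lymphoid classes. Of the 30 endothelial-like UMIs in control, 17 came from 1 cell. In the PKCi library the levels were 453 CPM in macrophage-like, 172 in monocyte-like, 218 in neutrophil-like and 9.71 in main-population cells. Endothelial-like cells had 35.9 from 30 UMIs. PKCi fibroblast-like cells had 254 CPM, with 101 of 117 UMIs from 1 cell, and PKCi T-like cells had 12.8 from 8 UMIs. Dendritic-like cells, a small myeloid class, had 1 Hmox1 UMI in control and 0 in PKCi.

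All 4 large classes thus had less Hmox1 in the PKCi library. The ratio of PKCi to control was 0.287 in macrophage-like cells (0.276 to 0.298), 0.154 in monocyte-like cells (0.142 to 0.168), 0.209 in neutrophil-like cells (0.161 to 0.268) and 0.243 in the main population (0.231 to 0.255). Lymphoid counts were at the edge of detection, with 3 UMIs in control and 8 in PKCi T-like cells, and 5 in control NK-like cells. PKCi NK-like cells had 0 UMIs, with an exact upper limit of 6.37 CPM. Hmox2, the second haem oxygenase, had ratios of 0.982 in the main population (0.952 to 1.013), 0.893 in macrophage-like (0.786 to 1.014), 0.770 in monocyte-like (0.632 to 0.935) and 0.796 in neutrophil-like cells (0.498 to 1.23).

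**Figure D2:**
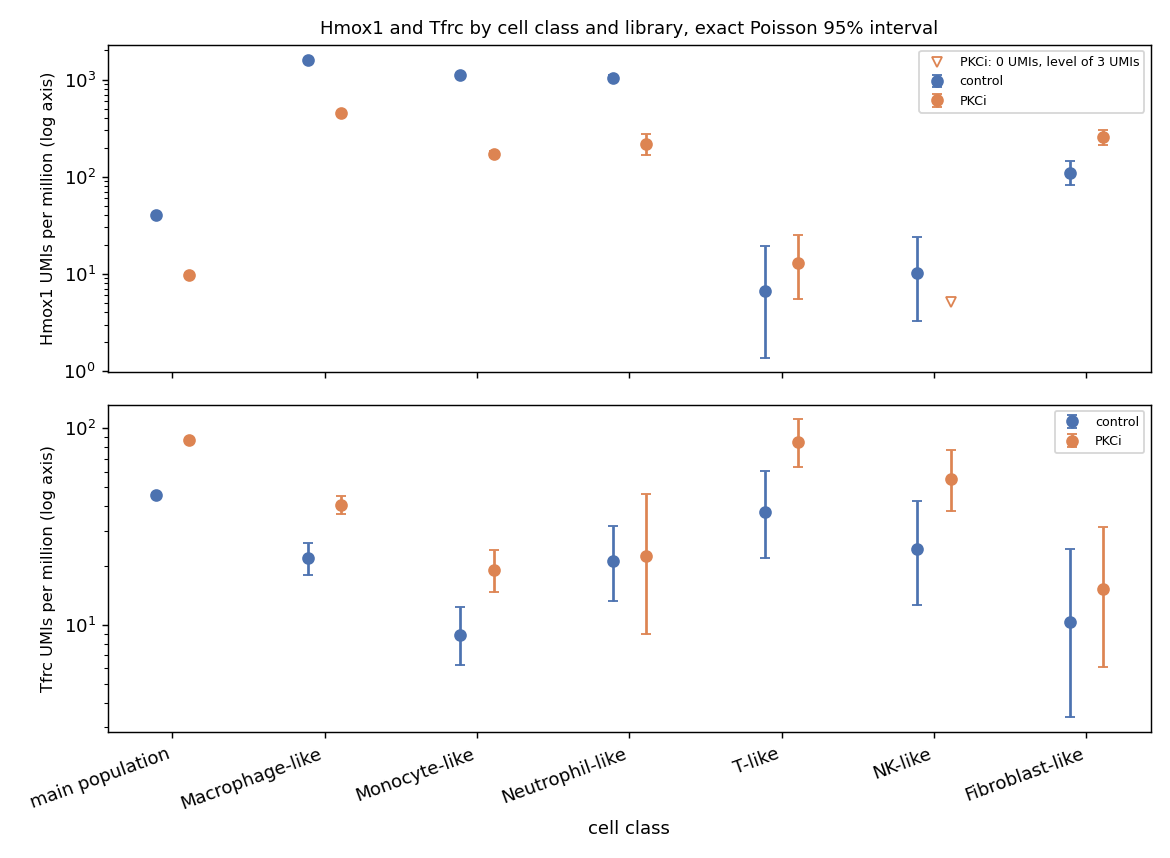
Hmox1 (upper) and Tfrc (lower) in CPM on log axes for 7 cell classes, control in blue and PKCi in orange, with exact Poisson 95% intervals. An open triangle marks a class with 0 UMIs at the level that 3 UMIs would give. Hmox1 lies lower in the PKCi library in the 4 classes on the left, and Tfrc lies higher in the first 3.

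Levels and ratios of Hmox1 differed between sub-clusters of the myeloid classes, and the ratios changed when the mix of sub-clusters was changed. What part the make-up of the classes has in the difference was not tested. Hmox1 ran from 582 to 2797 CPM over the 5 macrophage-like sub-clusters with at least 20 cells in each library in control, and from 144 to 1789 in PKCi. It was lower in PKCi in all 5, with ratios from 0.230 to 0.804. Sub-cluster 1, led by Mmp8, Cxcl3, Spp1 and Gpnmb, had 2797 and 1789 CPM and held most control cells of any. Sub-cluster 3, led by Bmp2, Vcam1 and class II genes, had 1864 and 428 CPM. With the control library's mix of sub-clusters imposed on both libraries, the log2 ratio of Hmox1 was -0.87 in place of -1.80 in macrophage-like cells, -1.86 in place of -2.69 in monocyte-like cells and -1.34 in place of -2.25 in neutrophil-like cells. Clusters with too few cells in 1 library were dropped from this calculation and not reweighted. They were macrophage-like number 4 (3 control and 111 PKCi cells) and neutrophil-like number 27 (92 and 2). The macrophage-like and neutrophil-like shifts therefore combine reweighting with the removal of these cells. Clustering used Hmox1 itself, so the sub-cluster levels describe the sub-clusters.

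Among monocyte-like cells, Hmox1 was lower in PKCi in all 4 sub-clusters of that size, with ratios from 0.0665 to 0.340. Sub-cluster 1, led by the classical monocyte genes Ly6c2, Plac8 and Chil3, had 449 CPM in control from 431 UMIs and 29.9 in PKCi from 10 UMIs. Sub-cluster 3, led by Nos2 and Mmp13, had 2072 and 587 CPM. In neutrophil-like cells, cluster 28, led by Sema3a, Cd36 and Gpnmb, had 1704 CPM in 152 control cells and 662 in 29 PKCi cells. Cluster 27, led by Ifitm6 and Ly6g, had 386 CPM in 92 control cells and 0 UMIs in 2 PKCi cells. Cluster 16, led by Bcl2a1d and Nr4a3, had 154 CPM in 23 control cells and 133 in 114 PKCi cells, with intervals that overlapped.

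Single cells showed the same direction once each was thinned to 5000 UMIs. Of 261 control macrophage-like cells, 81.6% had an Hmox1 UMI (76.4 to 86.1), against 57.3% of 511 PKCi cells (52.9 to 61.7). In monocyte-like cells the shares were 60.0% of 410 (55.1 to 64.8) and 24.9% of 337 (20.4 to 29.9). Unthinned, they were 92.5% and 76.3% in macrophage-like and 67.4% and 31.9% in monocyte-like cells. Thinning left out 32 control and 96 PKCi macrophage-like and 63 and 115 monocyte-like cells. Cells with at least 10 thinned Hmox1 UMIs made up 25.3% and 5.68% of macrophage-like cells, and 18.8% and 1.19% of monocyte-like cells. All 145 PKCi neutrophil-like cells had under 5000 UMIs, so no thinned share was available for them.

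**Figure D3:**
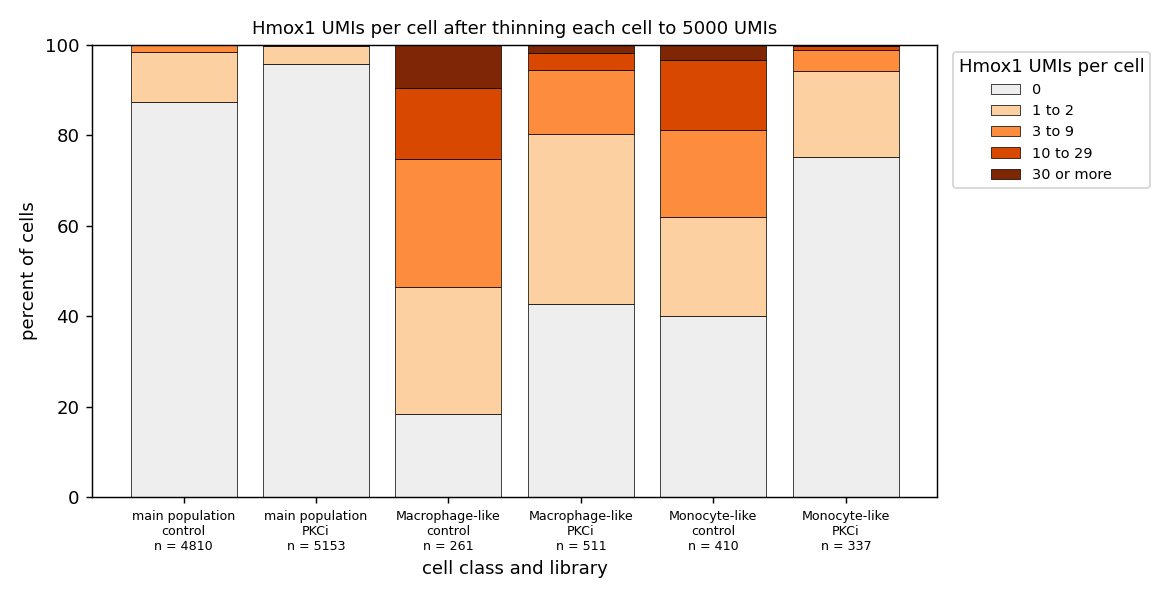
Percent of cells (vertical axis) with 0, 1 to 2, 3 to 9, 10 to 29 or at least 30 Hmox1 UMIs after thinning each cell to 5000 UMIs, for 3 classes and both libraries, with the number of cells under each bar. The darkest bands are widest in control macrophage-like cells.

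In the main population Hmox1 was low and uneven. Its 8057 control UMIs came from 2206 of 4858 cells, and 167 cells with at least 10 UMIs held 45.1% of them. In the PKCi library 1996 UMIs came from 1183 of 5324 cells, and 13 such cells held 14.9%. The ratio was under 1 in all 13 clusters with at least 20 cells in each library, from 0.157 to 0.463. The highest control levels were in cluster 6, led by Mmp3, Dcn, Adm and Lcn2 (95.9 CPM, against 20.1 in PKCi), and in cluster 5 (93.1 and 14.6). After thinning, 12.6% of control cells (11.7 to 13.6) and 4.25% of PKCi cells (3.72 to 4.84) had a UMI, against 45.4% and 22.2% unthinned. T-like cells, taken as the background of free RNA, had a thinned UMI in 0 of 29 control cells, with an exact upper limit of 11.9%. They had one in 2 of 42 PKCi cells (4.76%, 0.582 to 16.2). NK-like cells had one in 1 of 23 control cells (4.35%, 0.110 to 21.9) and in 0 of 42 PKCi cells, with an upper limit of 8.41%. The control share of the main population lay inside the wide NK-like interval, and its interval overlapped that of T-like cells. The PKCi share of the main population lay inside the wide interval of PKCi T-like cells. Neither thinned share is read as expression. By CPM, the control main population (39.1 to 40.9) lay above the intervals of T-like (1.37 to 19.4) and NK-like cells (3.30 to 23.7). In PKCi, the main population (9.29 to 10.1) lay inside the T-like interval (5.53 to 25.2). It lay above the NK-like upper limit of 6.37. The T-like background also differed between the libraries, with summed macrophage markers at 70.9 CPM in control and 350 in PKCi. Unthinned, the 13 PKCi cells with at least 10 UMIs reached 74 UMIs in the highest. In main-population cells with 0 UMIs of the macrophage, monocyte and neutrophil markers, a choice made after seeing the data, 107 control cells held 56 Hmox1 UMIs and 183 PKCi cells held 27, a log2 ratio of -1.61.

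The other genes of haem breakdown and transport divided by class. Slc48a1 had 122 CPM in control and 60.7 in PKCi macrophage-like cells, a ratio of 0.497 (0.441 to 0.558). It had 48.3 and 30.5 CPM in monocyte-like cells, where the log2 ratio ran from -1.29 to -0.060 over the alternatives, the last with Leiden resolution 0.5. It had 41.2 and 22.9 in the main population, where its ratio was under 1 in all 13 clusters. Blvrb, the reductase abundant in red cell precursors, had 282 and 166 CPM in macrophage-like cells, a ratio of 0.588 (0.546 to 0.633). Its levels were close in the main population (49.9 and 52.8) and in monocyte-like cells (118 and 111), and neutrophil-like cells had 41 and 5 UMIs. Blvra, the main biliverdin reductase of adult tissue, stayed within 1.5-fold in the 3 classes where it had enough UMIs. It had 96.9 and 73.7 CPM in macrophage-like, 38.7 and 44.0 in monocyte-like and 20.9 and 18.3 in main-population cells.

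Of the ferritin chains, Fth1 was lower in the PKCi library in macrophage-like, monocyte-like and main-population cells, and Ftl1 in macrophage-like and monocyte-like cells. Fth1 had 17533 and 10912 CPM in macrophage-like cells (ratio 0.622), 23403 and 10522 in monocyte-like cells (0.450) and 5374 and 3476 in the main population (0.647). The macrophage-like difference stayed past 1.5-fold under 8 of 12 alternatives, with log2 ratios from -0.94 to -0.40, and the main-population one under 8 of 11, from -0.68 to -0.47. Neutrophil-like cells had the highest levels, 50385 and 44670 CPM, within 1.5-fold. There the log2 ratio ran from -1.89 to 0.015 over the alternatives and passed 1.5-fold under 3 of 11. Fth1 ratios were under 1 in all 13 main-population clusters, from 0.496 to 0.863. Ftl1 had 9711 and 5528 CPM in macrophage-like cells (0.569) and 8238 and 5015 in monocyte-like cells (0.609, past 1.5-fold under 9 of 11 alternatives). It had 1029 and 786 in the main population (0.764), which is within 1.5-fold. Its pseudogene Ftl1-ps1 went from 196 to 113 CPM in macrophage-like cells, and since the sequences are alike, how reads were divided between them is uncertain.

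Slc40a1 was found mainly in macrophage-like and neutrophil-like cells. It had 64.2 CPM in control and 21.7 in PKCi macrophage-like cells, a ratio of 0.338 (0.281 to 0.407). Neutrophil-like cells had 67.1 and 76.8, where the interval of the ratio ran from 0.688 to 1.84. The neutrophil-like log2 ratio ran from -2.77 to 1.30 over the alternatives, and 7 of 11 kept its sign. Fibroblast-like cells had 12 control UMIs and 1 PKCi UMI. Monocyte-like cells had 7 and 2 UMIs, and 31 and 20 UMIs came from the whole main population. T-like, NK-like, dendritic-like and endothelial-like cells had 0 UMIs in both libraries. In T-like cells the exact upper limit was 8.18 CPM in control and 5.90 in PKCi. Within macrophage-like cells, sub-cluster 3 had 133 and 28.2 CPM, sub-cluster 5 had 35 control UMIs and 0 in PKCi, and sub-cluster 1 had 57.5 and 59.8 CPM.

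Tfrc ran the other way. In the main population it had 45.8 CPM in control and 86.7 in PKCi, a ratio of 1.89 (1.84 to 1.94), and its ratio was above 1 in all 13 clusters, from 1.32 to 2.48. The thinned share of cells with a UMI was 18.4% (17.3 to 19.5) and 28.9% (27.7 to 30.2), against 65.7% and 71.99% unthinned. Macrophage-like cells had 21.8 and 40.7 CPM, a ratio of 1.87 (1.51 to 2.33), and monocyte-like cells had 8.87 and 18.9 from 36 and 70 UMIs. Lymphoid cells also had more: 37.7 and 84.8 CPM in T-like cells (17 and 53 UMIs), and 24.4 and 55.2 in NK-like cells (12 and 32 UMIs). Neutrophil-like cells had 22 and 7 UMIs, 21.1 and 22.4 CPM.

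Krt8, the keratin of the main population, was also higher in PKCi macrophage-like cells, at 57.3 CPM in control and 109 in PKCi. Sub-cluster 6 (13 and 29 cells), led by Galntl6, Hmga2 and other genes that are not macrophage genes, had Krt8 at 215.5 and 424 CPM and held 31 of 117 control and 113 of 337 PKCi Tfrc UMIs. Without it, the log2 ratio of Tfrc was 0.79 in place of 0.90, and with the main-population profile subtracted it was 0.63. When clusters were rebuilt without the members and listed genes it was 0.26, which is within 1.5-fold.

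Aco1 and Ireb2, the iron sensors, differed little in the main population, with 24.6 and 24.1 CPM for Aco1 and 23.0 and 20.7 for Ireb2. In macrophage-like cells Aco1 had 24.6 and 38.6 CPM, a ratio of 1.57 (1.28 to 1.94), and in monocyte-like cells 11.8 and 18.9, a ratio of 1.60 from 48 and 70 UMIs. The macrophage-like ratio stayed past 1.5-fold under 9 of 12 alternatives (log2 ratios from 0.48 to 0.98) and the monocyte-like ratio under 6 of 11 (0.50 to 0.77). Ireb2 stayed within 1.5-fold in both, at 24.4 and 32.0 CPM and at 27.6 and 33.8.

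**Figure D4:**
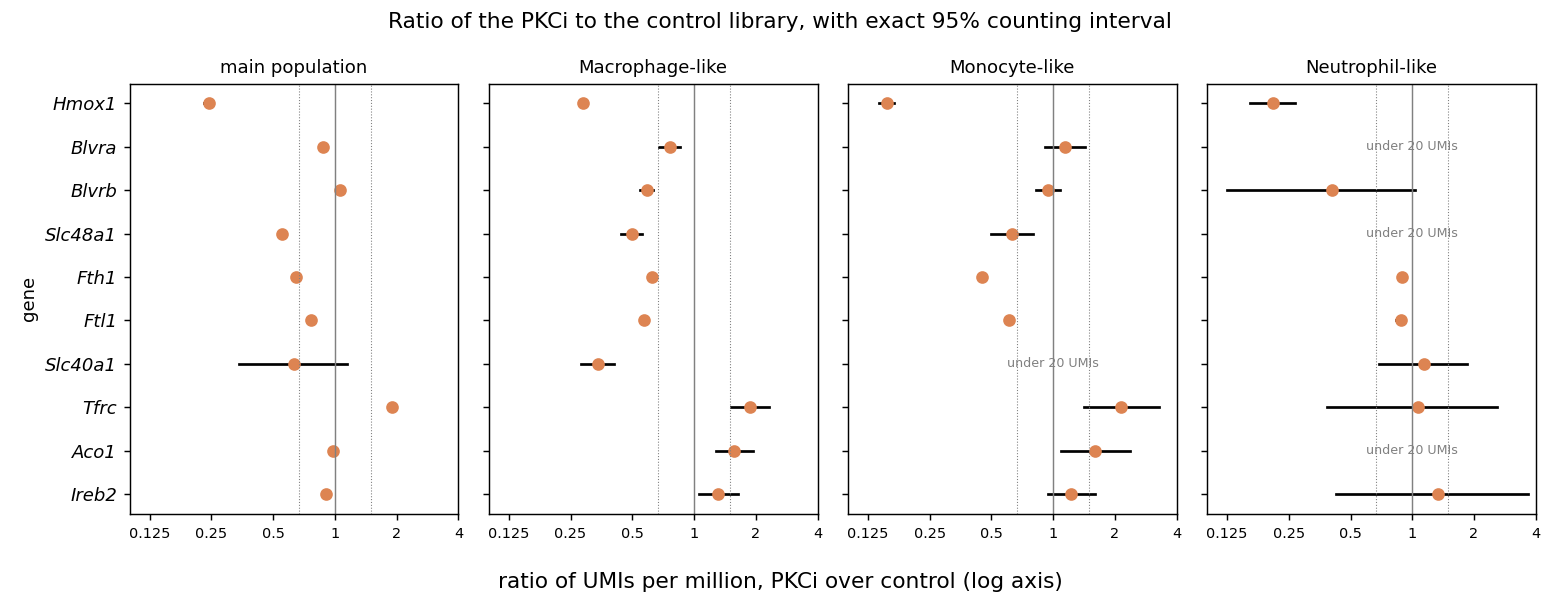
Ratio of PKCi to control level (log axis) for each gene in the 4 large classes, with exact 95% intervals as bars; dotted lines mark 1.5-fold and genes under 20 UMIs have no point. Hmox1 lies farthest to the left in each class, and Tfrc lies right of 1.5 in the first 3.

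Fibroblast-like cells differed from myeloid cells in sign for some genes, on few cells and with no test of the difference. Endothelial-like cells, the other stromal class, had an Hmox1 ratio of 0.477 (0.278 to 0.819) and an Ftl1 ratio of 0.863 (0.782 to 0.954). Both were below 1 as in the myeloid classes, and the Fth1 ratio was 1.07. The Hmox1 ratio rests on 30 UMIs in each library, and 17 of the control UMIs came from 1 of 19 cells. Unthinned, 42.1% of control and 54.8% of PKCi endothelial-like cells had an Hmox1 UMI. After thinning, 83.3% of 18 control and 89.3% of 28 PKCi cells had none. Fth1 had 4018 and 8221 CPM in fibroblast-like cells, a ratio of 2.05 (1.94 to 2.16), and Ftl1 had 1408 and 2011. Hmox1 had 53 control and 117 PKCi UMIs, but 101 of the latter came from 1 cell. Without the highest cell of each library Hmox1 had 66.3 and 36.1 CPM, and Fth1 had 3664 and 7191. Thinned, 8 of 21 control and 3 of 24 PKCi fibroblast-like cells had an Hmox1 UMI.

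Co-detection within single cells was read for 6 of the 45 pairs, after thinning to 5000 UMIs. Slc48a1 was found more often beside Hmox1: in control macrophage-like cells 43.7% of 213 cells with Hmox1 had it (36.9 to 50.6), against 12 of 48 cells without (13.6 to 39.6%). In PKCi cells the shares were 30.03% of 293 (24.8 to 35.6) and 16.5% of 218 (11.8 to 22.1), with intervals that did not overlap. Slc40a1 was found in 14.6% of control cells with Hmox1 (10.1 to 20.02) and 4.17% without (0.509 to 14.3), and in 6.48% and 4.59% of PKCi cells. Blvrb was found in 66.7% of control cells with Hmox1 and 62.5% without, and in 49.8% and 51.8% of PKCi cells. Tfrc was found in 4.69% and 2.08% of control and 13.3% and 15.1% of PKCi macrophage-like cells with and without Hmox1. In 33 control cells with Slc40a1, 3 had Tfrc. Aco1 and Ireb2 met in 56 control and 52 PKCi main-population cells, and Ireb2 was in 10.4% of control cells with Aco1 and 10.1% without.

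Other genes of iron and haem handling came from 6 lists, read against the shares over all genes given above: 11.5% higher and 6.13% lower in macrophage-like, 15.9% and 8.2% in monocyte-like, 25.5% and 21.3% in neutrophil-like and 5.29% and 7.26% in main-population cells. A single called gene in a list is not read as a result.

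Of the genes of iron uptake, 1 of 10 was higher and none lower in macrophage-like cells, 2 were higher and 4 lower of 10 in monocyte-like cells, 2 higher and 3 lower of 6 in neutrophil-like cells, and 2 higher and 3 lower of 15 in the main population. Trf, the iron carrier transferrin, was higher in the PKCi library. It had 312 and 841 CPM in macrophage-like, 121 and 340 in monocyte-like, 119 and 269 in neutrophil-like and 0.829 and 3.37 in main-population cells. The macrophage gene C1qa was also higher in the PKCi main population, at 2.99 and 7.15 CPM. How much of the main-population Trf came from free RNA was not tested. Lcn2, which binds iron-loaded siderophores, was lower, with 3442 and 544 CPM in neutrophil-like, 14.3 and 1.08 in monocyte-like and 22.3 and 3.103 in main-population cells. In monocyte-like cells Steap3, an endosomal iron reductase, had 3.20 and 9.997 CPM from 13 and 37 UMIs, and Ncoa4, which delivers ferritin for breakdown, had 50.3 and 30.5 CPM. In neutrophil-like cells Slc11a1, a metal carrier of the phagosome, had 173 and 390 CPM, and the metal reductase Steap4 had 114 and 38.4. Slc39a8, a metal importer, had 26 and 9 UMIs in the whole main population.

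Of the genes of haem transport and scavenging, 1 was higher and 1 lower of 10 in macrophage-like cells, 2 higher and 1 lower of 7 in monocyte-like cells, 1 higher and 2 lower of 4 in neutrophil-like cells, and none higher and 2 lower of 12 in the main population. Hp, the haemoglobin-binding haptoglobin, was lower in all 4 large classes, with 154 and 63.0 CPM in monocyte-like and 665 and 416 in neutrophil-like cells, and at most 5.95 CPM in the other two. Abcg2, an exporter that carries porphyrins, was higher in macrophage-like cells, with 3.53 and 8.33 CPM from 19 and 69 UMIs.

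Of 8 haem synthesis genes in macrophage-like cells 1 was higher, Alas1, the first and rate-limiting enzyme (47.8 and 86.2 CPM), and none was lower. In monocyte-like cells 3 of 8 were higher and none lower, but these rest on 9 to 58 UMIs per library and the intervals of both levels overlapped for each. Of 6 iron chaperone and export-partner genes in macrophage-like cells 1 was higher, the ferroxidase Cp (28.1 and 60.8 CPM). Of 11 iron-sensing genes 1 was higher in macrophage-like cells, Fbxl5, which marks the iron regulatory proteins for degradation (80.2 and 125.6 CPM). In neutrophil-like cells 2 of 5 iron-sensing genes were higher and 1 lower, with Iscu, the scaffold of iron-sulphur assembly, at 47.9 and 118 CPM.

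Of 10 transcription factor genes in macrophage-like cells 3 were higher, among them Hif1a (281 and 477 CPM) and Mafk (11.7 and 20.2), and 1 was lower. In neutrophil-like cells 2 of 6 were higher and none lower. They were Maff, a small Maf protein, at 92.0 and 186 CPM, and Nfe2l2, which encodes the antioxidant regulator NRF2, at 539 and 810 CPM. None of the 11 iron-sensing or 9 tested transcription factor genes passed 1.5-fold in the main population.

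Haemoglobin RNA, counted as a mark of red cells, did not keep 1 direction. Over all barcodes it made up 32.0 CPM in control and 42.3 in PKCi, and over kept cells 17.2 and 0.609. Each library had 4 barcodes with at least 100 haemoglobin UMIs. In control 1 barcode held 3139 of 7128 UMIs, and in PKCi 1 barcode held 3384 of 9704. The values over all barcodes thus rest heavily on few barcodes. Of 3725 UMIs in kept control cells, 2337 lay in 159 of 4858 main-population cells and 1341 in 11 unnamed cells. In macrophage-like cells it was 3.91 and 0.724 CPM, from 21 and 6 UMIs. In macrophage-like cells without a haemoglobin UMI the log2 ratio of Hmox1 was -1.70.

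Over the 14 profiles of 7 classes in 2 libraries, and 3903 genes, the genes whose log2(CPM + 10) was most alike to Hmox1 by Pearson's r were Bnip3 (0.945), Ftl1 (0.923), Cstb (0.919), Creg1 (0.913) and Ftl1-ps1 (0.905). For Fth1 they were Snx10 (0.962), Cxcl2, Plekhm2, Cebpb and Slc2a1 (0.955). For Slc40a1 they were Arfgef2 (0.861), Cpne2, Rab7, Neat1 and Hgsnat (0.812), and for Tfrc Ankrd11 (0.896), Taf15, Rbm25, Cdk12 and Suz12 (0.879). These profiles share libraries and differ in depth, so the values are descriptions.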

How the data were processed

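Dissociated tumours were profiled with 10x Genomics 3' v3.1 chemistry, per the labels' protocols. The authors deposited raw UMI counts per gene and cell, made with Cell Ranger 7.0.0, per the file headers. The submitters' processing notes also name Seurat and GRCm38. Whether intronic reads were counted is not given in the sources used here. The members, gene lists and tests were chosen with earlier results of these data known.

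Cells with at least 500 genes and at most 20% mitochondrial UMIs were kept. Scrublet in scanpy 1.11.5 marked 111 control and 132 PKCi cells as doublets, which were removed. Cells were clustered (2000 variable genes, 30 components, 15 neighbours, Leiden resolution 1 with splits at 0.5) and classes named from listed markers, so they may differ from the study's own. UMIs were summed per class and library. Before filtering the matrices totalled 222641855 UMIs in the control and 229219749 in the PKCi matrix. Ratios have exact conditional binomial intervals, levels exact Poisson intervals and shares exact Clopper-Pearson intervals at 95%. Log2 ratios add 0.5 to each count. Classes were compared with at least 100 cells per library and described with at least 20. All 10 members are named. Listed genes are named where they passed 1.5-fold with intervals apart, at most 3 per direction, list and class, and the 5 most alike patterns are named for 4 members. The scripts were tested on simulated data. Levels were recomputed under 9 other settings and thinned shares under 3, plus others chosen after seeing the data.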

Additional observations from a re-analysis of the deposited data

Results flagged for a closer look

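Each of these genes had a ratio of PKCi to control whose counting interval lay above 1 in a class while it lay below 1 in another. The difference between classes was not tested, as each group is 1 library. Hmox1 had a ratio of 2.31 in fibroblast-like cells and lay below 1 in the main population and the 3 large myeloid classes; 1 PKCi fibroblast-like cell held 101 of the 117 UMIs. Fth1 had ratios of 2.05 in fibroblast-like and 1.36 in NK-like cells and lay below 1 in T-like cells and all 4 large classes. Ftl1 had a ratio of 1.43 in fibroblast-like cells, against 0.558 in NK-like cells. Blvrb had ratios of 1.06 in the main population and 1.69 in fibroblast-like cells, against 0.588 in macrophage-like cells. Ireb2 had a ratio of 1.31 in macrophage-like cells, against 0.903 in the main population.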

How the results depend on the processing

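Log2 ratios of 36 member and class pairs were recomputed under 13 alternatives where these applied, 4 of them chosen after seeing the data. All 21 ratios past 1.5-fold kept their direction under every alternative run, and 8 of them stayed past 1.5-fold under all. Among the 21, Slc40a1 in the main population (0.342 to 1.145) and Blvrb in neutrophil-like cells (0.126 to 1.03) had counting intervals that included 1. The alternatives reuse the same UMIs, so a kept direction does not address counting error. Leaving out barcodes found in both libraries kept every value within its counting interval. Centring shifted ratios by the median of all genes, 0.16 in monocyte-like cells on the log2 scale. The values that left their counting interval, or counts that moved by over 1.5 times, follow; the alternatives that rebuild classes changed which cells were compared. With Leiden resolution 0.5, the macrophage-like log2 ratios were -1.91 for Hmox1, -0.94 for Fth1, -1.14 for Slc40a1, -0.22 for Blvra, -0.57 for Blvrb and 0.98 for Aco1. The monocyte-like values were -2.41 for Hmox1, -0.77 for Fth1, -0.31 for Ftl1, 1.83 for Tfrc, -0.16 for Blvra, -0.33 for Blvrb and -0.060 for Slc48a1, and 2 members were lower and 1 member was higher. The neutrophil-like values were -3.07 for Hmox1, -0.88 for Fth1, -0.77 for Ftl1, 1.45 for Tfrc and -0.72 for Slc40a1, and 5 members were lower and 1 member was higher. With clustering without the members and listed genes, the main-population log2 ratio was -1.82 for Hmox1. In macrophage-like cells the values were -1.49 for Hmox1, -0.42 for Fth1, -0.61 for Ftl1, 0.26 for Tfrc, -0.65 for Blvra, -0.93 for Blvrb and -0.75 for Slc48a1, and 0 members were higher. In monocyte-like cells the values were -2.82 for Hmox1, -0.91 for Ftl1, -0.22 for Blvra, -0.47 for Blvrb and -1.29 for Slc48a1, and 1 member was higher. In neutrophil-like cells the values were -3.06 for Hmox1, -0.87 for Fth1, -0.77 for Ftl1, 1.46 for Tfrc and -0.71 for Slc40a1, and 5 members were lower and 1 member was higher. With a 10% mitochondrial limit and at least 1000 genes, the main-population log2 ratios were -1.80 for Hmox1, -0.59 for Fth1 and -0.36 for Ftl1. For macrophage-like cells the values were -1.50 for Hmox1, -0.40 for Fth1, -0.60 for Ftl1, 0.53 for Tfrc and -0.75 for Slc48a1. For monocyte-like cells the values were -1.13 for Fth1, -0.91 for Ftl1, -0.18 for Blvra, -0.34 for Blvrb and -1.23 for Slc48a1, and 1 member was higher. For neutrophil-like cells the values were -5.71 for Hmox1, -1.89 for Fth1, -1.75 for Ftl1, 1.77 for Tfrc and -2.77 for Slc40a1, and 5 members were lower and 1 member was higher. With doublets kept, the main-population log2 ratios were -1.75 for Hmox1, -0.58 for Fth1 and -0.34 for Ftl1. Among macrophage-like cells the values were -1.61 for Hmox1, -0.41 for Fth1, -0.63 for Ftl1, 0.32 for Tfrc, -0.63 for Blvra, -0.89 for Blvrb and -0.83 for Slc48a1, and 1 member was higher. Among monocyte-like cells the values were -0.86 for Ftl1, -0.38 for Blvrb and -1.19 for Slc48a1. Among neutrophil-like cells the values were -2.67 for Hmox1, -0.50 for Fth1 and -0.39 for Ftl1, and 1 member was higher. With the mean of per-cell CPM, the main-population log2 ratios were -1.92 for Hmox1, -0.55 for Fth1 and -0.35 for Ftl1. The macrophage-like values were -1.46 for Hmox1, -0.73 for Fth1, -1.26 for Slc40a1 and -0.81 for Slc48a1. The monocyte-like value was -0.66 for Ftl1, and 1 member was higher. The neutrophil-like values were -0.30 for Fth1 and -0.29 for Ftl1, and 1 member was lower and 1 member was higher. With totals without mitochondrial, ribosomal and haemoglobin genes, the main-population log2 ratios were -0.62 for Fth1 and -0.38 for Ftl1. In monocyte-like cells the values were -1.11 for Fth1 and -0.68 for Ftl1. With centring on the median of all genes, the main-population log2 ratios were -0.60 for Fth1 and -0.36 for Ftl1. For macrophage-like cells the values were -0.74 for Fth1 and -0.87 for Ftl1. For monocyte-like cells the values were -2.85 for Hmox1, -1.31 for Fth1 and -0.87 for Ftl1, and 1 member was higher. For neutrophil-like cells the value was -0.22 for Fth1. With the main-population profile subtracted, the macrophage-like log2 ratios were -1.67 for Hmox1, -0.59 for Fth1 and -0.70 for Ftl1. Among monocyte-like cells the value was -1.17 for Fth1. With cells without haemoglobin UMIs only, the macrophage-like log2 ratios were -1.70 for Hmox1, -0.64 for Fth1 and -0.76 for Ftl1. The neutrophil-like value was -0.20 for Fth1. The control library's mix of clusters was imposed without clusters that had too few cells in 1 library. Those were macrophage-like number 4, neutrophil-like number 27 and main-population cluster 20. With this mix, the main-population log2 ratios were -0.68 for Fth1, -0.43 for Ftl1, 0.96 for Tfrc and 0.022 for Blvrb. In macrophage-like cells the values were -0.87 for Hmox1, -0.44 for Fth1, -0.55 for Ftl1, -0.84 for Slc40a1, -0.62 for Blvrb and -0.56 for Slc48a1, and 3 members were lower and 1 member was higher. In monocyte-like cells the values were -1.86 for Hmox1, -0.76 for Fth1, -0.50 for Ftl1, -0.43 for Blvrb and -1.02 for Slc48a1, and 1 member was higher. In neutrophil-like cells the values were -1.34 for Hmox1, 0.015 for Fth1, 0.49 for Ftl1 and 1.30 for Slc40a1, and 1 member was lower and 1 member was higher. With main-population cells without myeloid marker UMIs only, the main-population log2 ratios were -1.61 for Hmox1, -0.47 for Fth1, -0.34 for Ftl1, 0.63 for Tfrc, 0.20 for Blvrb, -0.55 for Slc48a1, 0.54 for Aco1 and -0.24 for Ireb2, and 1 member was lower. With macrophage-like sub-cluster 6 left out, the macrophage-like log2 ratio was -1.91 for Hmox1. Thinned to 3000 UMIs, of main-population cells, 9.03% in control and 2.91% in PKCi had an Hmox1 UMI. Of macrophage-like cells, 70.4% in control and 43.3% in PKCi had an Hmox1 UMI. Of monocyte-like cells, 53% in control and 19.2% in PKCi had an Hmox1 UMI. Of main-population cells, 11.3% in control and 19.8% in PKCi had a Tfrc UMI. Of macrophage-like cells, 10.8% in PKCi had a Tfrc UMI. Of monocyte-like cells, 3.69% in PKCi had a Tfrc UMI. Of macrophage-like cells, 20.2% in control and 11.6% in PKCi had Hmox1 and Slc48a1 UMIs. Of monocyte-like cells, 8.1% in control and 1.39% in PKCi had Hmox1 and Slc48a1 UMIs. Thinned to 10000 UMIs, of main-population cells, 20.1% in control and 8.08% in PKCi had an Hmox1 UMI. Of macrophage-like cells, 90.7% in control and 72.8% in PKCi had an Hmox1 UMI. Of monocyte-like cells, 75.2% in control and 35.7% in PKCi had an Hmox1 UMI. Of macrophage-like cells, 20.9% in control and 8.71% in PKCi had a Slc40a1 UMI. Of monocyte-like cells, 4.13% in control had a Slc40a1 UMI. Of main-population cells, 30.6% in control and 45.4% in PKCi had a Tfrc UMI. Of macrophage-like cells, 11.6% in control and 24.7% in PKCi had a Tfrc UMI. Of monocyte-like cells, 9.09% in control and 17.1% in PKCi had a Tfrc UMI. Of macrophage-like cells, 20.5% in control and 6.46% in PKCi had Hmox1 and Slc40a1 UMIs. Of monocyte-like cells, 3.31% in control had Hmox1 and Slc40a1 UMIs. Of macrophage-like cells, 53.5% in control and 31.5% in PKCi had Hmox1 and Slc48a1 UMIs. Of monocyte-like cells, 30.6% in control and 9.3% in PKCi had Hmox1 and Slc48a1 UMIs. Without thinning, of main-population cells, 45.4% in control and 22.2% in PKCi had an Hmox1 UMI. Of macrophage-like cells, 92.5% in control and 76.3% in PKCi had an Hmox1 UMI. Of monocyte-like cells, 67.4% in control and 31.9% in PKCi had an Hmox1 UMI. Of main-population cells, 0.597% in control and 0.357% in PKCi had a Slc40a1 UMI. Of macrophage-like cells, 22.9% in control and 8.73% in PKCi had a Slc40a1 UMI. Of main-population cells, 65.7% in control and 72% in PKCi had a Tfrc UMI. Of macrophage-like cells, 19.4% in control and 29.8% in PKCi had a Tfrc UMI. Of monocyte-like cells, 6.98% in control had a Tfrc UMI. Of macrophage-like cells, 22.9% in control and 7.58% in PKCi had Hmox1 and Slc40a1 UMIs. Of macrophage-like cells, 60.1% in control and 41.2% in PKCi had Hmox1 and Slc48a1 UMIs. Of monocyte-like cells, 21.4% in control and 7.08% in PKCi had Hmox1 and Slc48a1 UMIs. Without the fibroblast-like cell with the most UMIs in each library, a choice made after seeing the data, the log2 ratio of Hmox1 reversed to -0.86. No paired analysis was possible because each group has 1 library. Depth limited neutrophil-like cells (medians of 3379 and 2049 UMIs) and the small lymphoid and stromal classes, and no setting here stands in for replicate tumours.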
